A study of Homo sapiens with 21 samples.

Results

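The genes described here have roles in the synthesis, breakdown or binding of hyaluronan: CEMIP, CEMIP2, HAS1, HAS2, HAS3, HYAL1, HYAL2, HYAL3 and CD44. They were taken by symbol, and all 9 were found among the 16383 genes listed in the table. The set was chosen by gene function together with a measured value, the strong difference of CEMIP between CDK6 and CDK4 knockdown, so that difference is described without a test, as are the other differences of CEMIP that rest on the CDK4 or CDK6 single knockdown. RNA with poly(A) tails was sequenced from an established human lung fibroblast line, IMR90, labelled as wild type, in 21 libraries of 7 groups with 3 libraries each. The proliferating group had no irradiation and no siRNA. The other 6 groups were senescent after irradiation, were transfected on days 4 and 7 with siRNA at 5 nM and were harvested on day 10. The siRNA was non-targeting number 3 (NT3) or number 4 (NT4) in a pair of control groups, and elsewhere siRNA against CCND1 (cyclin D1), against CDK4, against CDK6, or against CDK4 and CDK6 together (dual knockdown). NT3 and NT4 together are called the controls. The sample titles number the non-targeting siRNAs 3 and 4 while the series description numbers them otherwise, and the titles are followed here. The effects of irradiation and of transfection cannot be told apart in any comparison with the proliferating group. The labels name 1 siRNA treatment per target and give no siRNA sequence. They do not say whether libraries of a group came from separate cultures, so p-values measure the spread between libraries within a group, which may be technical. The difference between NT3 and NT4 is not part of that spread, so p-values against the controls leave it out.

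Hyaluronan is a long unbranched sugar polymer of the matrix, spun out through the plasma membrane by the synthases HAS1, HAS2 and HAS3 from UDP-glucuronic acid and UDP-N-acetylglucosamine. Its first breakdown is ascribed to CEMIP, to the related membrane protein CEMIP2 (also called TMEM2) and to the anchored hyaluronidase HYAL2. It is finished in lysosomes by HYAL1 and exoglycosidases. CD44 is its main cell surface receptor, and fibroblasts are a major source of the polymer in lung and skin.

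Depth was 12892442 to 21822152 reads per library over the listed genes. Values are normalised read counts, that is, reads divided by 1 size factor per library. The targeted transcript was left at 11.8% of the control mean in CCND1 knockdown, at 8.67% (CDK4) and 16.4% (CDK6) in the single kinase knockdowns, and at 9.41% (CDK4) and 20.6% (CDK6) in the dual knockdown. All 8 fibroblast markers passed the filter on low values, and their summed value was 387492 to 798372. The summed values were 14.5 to 55 for 6 epithelial markers, 16 to 58.9 for 5 endothelial markers and 6.99 to 55.9 for the 3 listed of 4 mesothelial markers. Of 5 leukocyte markers the summed value was 650 to 1589, nearly all of it CD68, a lysosomal gene, while PTPRC (CD45) stayed at 0 to 8.9. The third NT3 library, the shallowest, had the lowest CEMIP, CEMIP2, HAS3, HYAL1, HYAL2 and CD44 values of its group and the highest HAS2 and HYAL3 values. For the reported differences of the 9 genes, calls that changed without it are given beside their values. Genes of the other pathway lists were not checked without it.

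The 9 genes spanned a wide range of levels. Per kilobase of annotated exon (the union of all exons of a gene), the control mean was 7710 normalised counts for CD44, 585 for CEMIP, 214 for CEMIP2, 171 for HYAL2, 138 for HAS2 and 75.2 for HYAL3. It was 8.06 for HAS3, 3.06 for HYAL1 and 0.78 for HAS1. Of the 9 genes, 8 had a normalised count of at least 10 in at least 3 libraries and were tested, and HAS1 was not. The plot of levels by group shows the 8 tested genes.

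**Figure D1:**
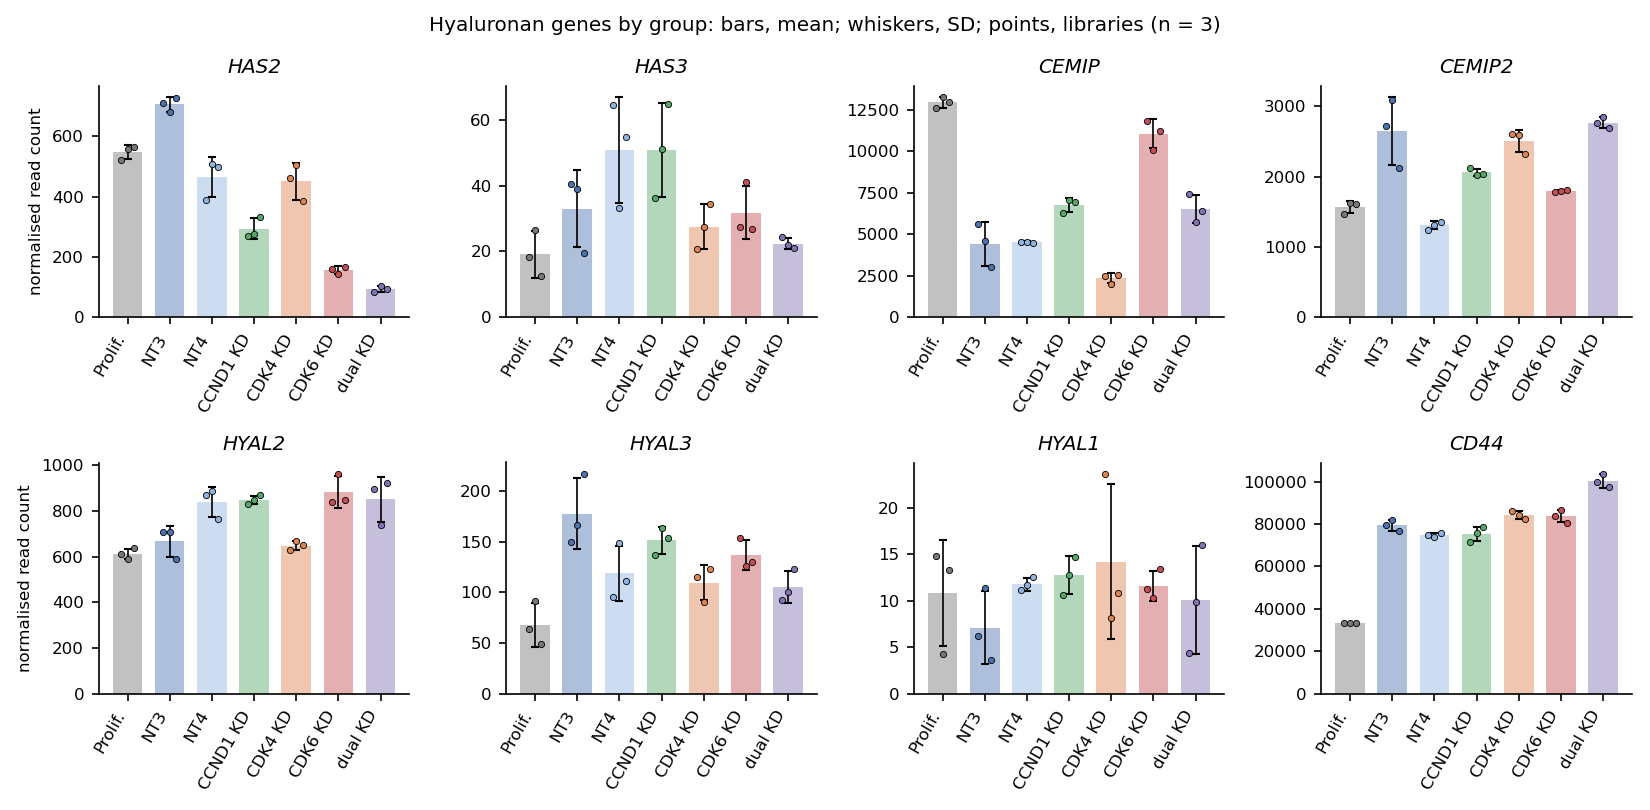
Normalised read counts (y axes, linear and starting at 0) of 8 hyaluronan genes in the 7 groups. Bars are means of 3 libraries, whiskers are SDs and points are libraries. CEMIP is highest in proliferating cells and CDK6 knockdown, HAS2 is lowest in CDK6 and dual knockdown, and CD44 is lowest in proliferating cells.

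HAS2 was the most abundant synthase transcript, and it fell in every knockdown compared with the controls, least and least securely in CDK4 knockdown. Differences below are on the log2 scale of normalised count plus 1, with the standard error (SE) from a fit of all 21 libraries, and limma p-values adjusted over the 11579 tested genes with a threshold of 0.05. Values of HAS2 were 711, 680 and 728 in NT3 and 388, 508 and 498 in NT4. They were 269, 277 and 333 in CCND1 knockdown and 463, 506 and 385 in CDK4 knockdown. In CDK6 knockdown they were 161, 142 and 166, and in dual knockdown they were 82.8, 103.7 and 94.1. All 9 libraries with reduced CCND1 or CDK6 lay below all 6 controls, while those of CDK4 knockdown overlapped NT4. HAS2 fell by 0.97 (SE 0.10, limma adjusted p = 4.79e-07) in CCND1 knockdown. It fell by 1.87 (SE 0.10, limma adjusted p = 1.29e-11) in CDK6 knockdown and by 2.60 (SE 0.10, limma adjusted p = 3.51e-14) in dual knockdown, to a geometric mean 3.65-fold and 6.07-fold lower than in the controls. These 3 calls were made against NT3 alone and against NT4 alone as well.

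In CDK4 knockdown HAS2 fell by 0.35 (SE 0.10, limma adjusted p = 0.024). That call was lost against NT4 alone, where the difference was -0.04 (limma adjusted p = 0.88), and in a fit of only the groups compared (limma adjusted p = 0.0853). It was also lost without NT4 library 2 or 3 or CDK4 knockdown library 1 or 3, where the limma adjusted p was 0.0522 to 0.183. Adding CDK6 siRNA to CDK4 siRNA lowered HAS2, with a difference of -2.26 (SE 0.12, limma adjusted p = 4.78e-12). Adding CDK4 siRNA to CDK6 siRNA lowered it further, with a difference of -0.74 (SE 0.12, limma adjusted p = 0.000175), and the dual knockdown libraries did not overlap those of CDK6 knockdown. The dual effect differed from both single effects added up by -0.39 (SE 0.16, limma adjusted p = 0.154). It was -0.08 (limma adjusted p = 0.774) with NT3 alone as control and -0.69 (limma adjusted p = 0.0188) with NT4 alone.

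The control groups themselves differed in HAS2, which was 0.61 lower in NT4 than in NT3 (SE 0.12, limma adjusted p = 0.000567) with no overlap. Proliferating cells, at 521, 558 and 563, lay between them. Senescent controls showed no call against proliferating cells, with a difference of 0.06 (SE 0.10, limma adjusted p = 0.606). With NT3 alone the difference was 0.37 (limma adjusted p = 0.00938) and with NT4 alone it was -0.24 (limma adjusted p = 0.0776).

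HAS3 was a low transcript, with 14 to 66 reads in a library. Its mean was 19.1 ± 7.13 (SD, n = 3) in proliferating cells and 41.9 ± 16.0 (SD, n = 6) in the controls, a rise of 1.06 (SE 0.28, limma adjusted p = 0.00208) that was lost under quantile normalisation (0.51, limma adjusted p = 0.112). In dual knockdown, at 24.3, 21.8 and 21, it fell by 0.78 (SE 0.28, limma adjusted p = 0.0277). The call was lost with no filter (limma adjusted p = 0.0596), under quantile normalisation (-0.44, limma adjusted p = 0.218) and against NT3 alone (-0.47, limma adjusted p = 0.248), and leaving out any of 7 libraries lost the call, 3 of them of the dual knockdown, with a limma adjusted p of 0.0519 to 0.0853. HAS1 had 0 to 4 reads in a library and 26 reads in all. It had 0 reads in each proliferating library, which allows up to 2.62, 3.19 and 2.66 normalised counts there (3 reads, counting error only), and it had no more than 4.85 in any senescent library, so no difference could be measured at this depth. On the opposite strand, CHTF8 shares 7.02% of the HAS3 exon bases and HAS2-AS1 shares 5.92% of those of HAS2.

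CEMIP, a secreted protein needed for breakdown of hyaluronan by skin fibroblasts, had its highest level in proliferating cells and its lowest in CDK4 knockdown. Its values were 12639, 13273 and 12969 in proliferating cells, 5612, 4596 and 3010 in NT3 and 4540, 4558 and 4453 in NT4. In CDK4 knockdown they were 2476, 1982 and 2540, below every control library. In CDK6 knockdown they were 11835, 10106 and 11224, between the controls and the proliferating libraries. CCND1 knockdown had 6290, 7085 and 6935 and dual knockdown had 7438, 5727 and 6376. Both of these groups lay above all 6 controls and overlapped each other. In order of the mean the groups ran from proliferating cells through CDK6 knockdown, CCND1 knockdown, dual knockdown, NT4 and NT3 to CDK4 knockdown, and the only neighbours whose libraries overlapped were CCND1 with dual knockdown and NT4 with NT3.

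CEMIP fell in senescent controls by 1.56 (SE 0.13, limma adjusted p = 3.32e-10), a 2.95-fold lower geometric mean than in proliferating cells. In these bulk samples fewer cells that express a gene and less of its RNA per cell cannot be told apart. It rose by 0.62 (SE 0.13, limma adjusted p = 0.000707) in CCND1 knockdown and by 0.56 (SE 0.13, limma adjusted p = 0.00104) in dual knockdown, and both calls held in every alternative run. The difference between NT4 and NT3 was 0.08 (SE 0.14, limma adjusted p = 0.705) and turned to -0.17 without the third NT3 library. CCND1 against dual knockdown gave 0.06 (SE 0.14, limma adjusted p = 0.817), which turned to -0.03 without the second dual knockdown library.

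The differences that rest on single kinase knockdowns are given as a description. CEMIP was 2.25 higher (SE 0.14) in CDK6 than in CDK4 knockdown, 4.76-fold. Against the controls it was 0.92 lower (log2 difference -0.92, SE 0.13) in CDK4 knockdown and 1.33 higher (SE 0.13) in CDK6 knockdown. Dual knockdown was 1.48 above CDK4 knockdown and 0.77 below CDK6 knockdown (log2 difference -0.77), with an SE of 0.14 for both. Its difference from the sum of the single effects was 0.15 (SE 0.19), so the dual level was near the sum of a lower and a higher single effect. Leaving out any library kept the difference between CDK6 and CDK4 knockdown at 2.14 to 2.32.

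The 4 contractile genes fixed as smooth muscle markers (MYH11, CNN1, ACTG2 and DES) were, like CEMIP, higher in sum in proliferating cells and in CCND1, CDK6 and dual knockdown than in the controls. Their summed value was 10332 to 10631 in proliferating cells, 4226 to 6268 in the controls and 4584 to 4984 in CDK4 knockdown. It was 10405 to 10982 in CDK6 knockdown, 10070 to 10725 in CCND1 knockdown and 7526 to 8481 in dual knockdown. Unlike CEMIP, the sum in CDK4 knockdown lay within the range of the controls, and the sum in CCND1 knockdown overlapped those in CDK6 knockdown and proliferating cells. ACTG2 and CNN1 made up most of it, while MYH11, the defining smooth muscle myosin, stayed at 0 to 1.92 in all 21 libraries. The part of these genes in the CEMIP result was not tested.

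CEMIP lies on the plus strand at chr15:80779343-80951776 (GRCh38, GENCODE v44), with 30 separate exon blocks, and CEMIP2 on the minus strand at chr9:71683366-71816690, with 27. The bases just before their annotated RefSeq start sites (GRCh38.p14) are shown because these relatives differed in their order across the groups. The CEMIP stretch ends where its first annotated exon begins, and the CEMIP2 stretch ends at a RefSeq start site that lies inside the annotated span of the gene. Capitals mark GGGCGG, the GC box bound by SP family factors, on either strand.
CEMIP, chr15:80779120-80779342, plus strand: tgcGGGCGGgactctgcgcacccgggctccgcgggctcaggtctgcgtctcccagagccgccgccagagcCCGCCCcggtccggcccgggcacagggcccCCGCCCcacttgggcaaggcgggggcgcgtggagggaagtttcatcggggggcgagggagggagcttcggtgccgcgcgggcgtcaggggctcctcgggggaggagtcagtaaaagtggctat
CEMIP2, chr9:71768514-71768763, minus strand: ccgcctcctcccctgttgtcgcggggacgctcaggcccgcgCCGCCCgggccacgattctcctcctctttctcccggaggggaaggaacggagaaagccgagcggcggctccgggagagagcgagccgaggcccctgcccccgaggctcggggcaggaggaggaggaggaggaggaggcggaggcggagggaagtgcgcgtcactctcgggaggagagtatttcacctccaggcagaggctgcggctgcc
In the 250 bases before the start site, GGGCGG was found 3 times for CEMIP and 1 time for CEMIP2, and 42.6% of 35116 RefSeq promoter windows of that length held it. TATAAA was found in CEMIP from 30 to 25 bases before the start, partly beyond the printed stretch, and in 10.7% of all windows. It was not found for CEMIP2. TGANTCA (AP-1, in 6.57% of windows), TGACGTCA (cyclic AMP response element, 1.65%), GGAATG (TEAD, 11.9%) and the NF-kB motif (9.96%) were searched on both strands and not found in either window. No match overlapped a match to another motif. These matches are a description of letters.

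**Figure D2:**
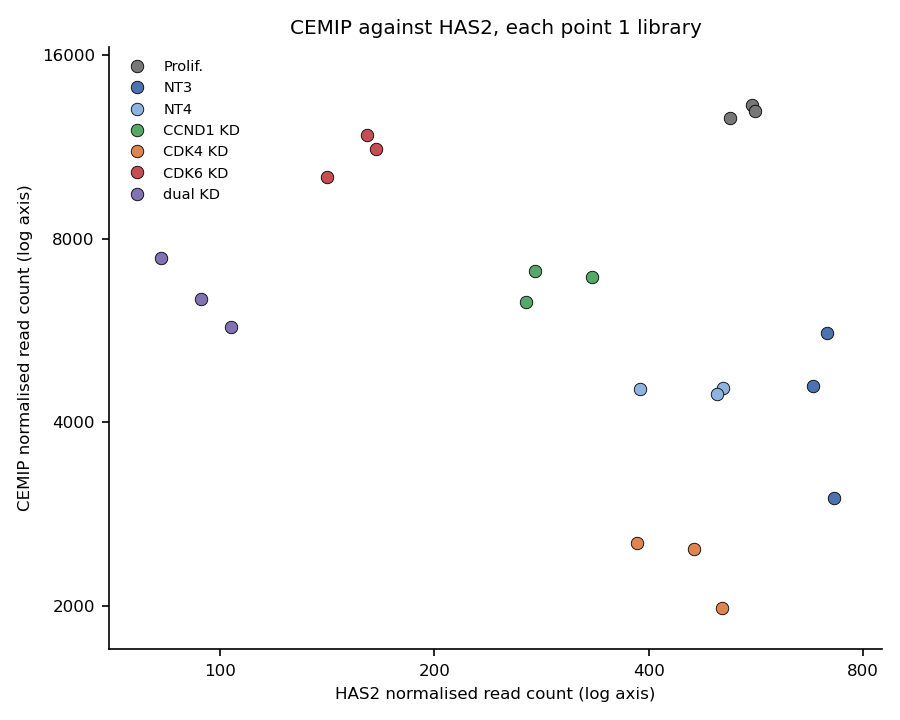
CEMIP against HAS2 in each of the 21 libraries, as normalised read counts on log axes. Proliferating libraries are high in both, controls and CDK4 knockdown are at the lower right, and CDK6 and dual knockdown are at the left with low HAS2.

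The plot of CEMIP against HAS2 shows how the transcript of a degradation factor and that of the main synthase stood to each other in a library. This ratio was chosen after its values were seen. The ratio of CEMIP to HAS2 normalised counts was 6.26 ± 1.93 (SD, n = 3) in NT3, 9.87 ± 1.58 (SD, n = 3) in NT4 and 5.29 ± 1.35 (SD, n = 3) in CDK4 knockdown. It was 23.7 ± 0.64 (SD, n = 3) in proliferating cells and 23.3 ± 2.35 (SD, n = 3) in CCND1 knockdown, which overlapped. It was 70.9 ± 2.96 (SD, n = 3) in CDK6 knockdown and 70.9 ± 17.5 (SD, n = 3) in dual knockdown, through different levels of both genes. CDK6 knockdown had 1.70-fold more CEMIP and 1.66-fold more HAS2 than dual knockdown.

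Across the 18 senescent libraries, the genes whose log2 values were most like those of CEMIP were sought among 5788 genes above the median level (469.8 normalised counts). The 5 highest Pearson correlations were with XPO6 (0.972), SULF1 (0.970), ARNT2 (0.968), FAM8A1 (0.953) and LBH (0.952). The lowest were with MCL1 (-0.920), RIN1 (-0.908) and PHC2 (-0.906). These libraries share 6 groups, so the correlations describe a common order of groups and carry no p. Over the 7 group means, which add proliferating cells, ARNT2 was first at 0.980 and was the only one of the 5 still among the highest 5. SULF1 and FAM8A1, at -0.043 and 0.057 over those means, did not share the high level of CEMIP in proliferating cells.

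ARNT2, a partner of bHLH-PAS transcription factors, lies on the same strand 181.4 kb before CEMIP (chr15:80404350-80597933), which was noticed after the ranking. Its mean was 1544 in proliferating cells, 532 in NT3, 577 in NT4, 864 in CCND1 knockdown, 425 in CDK4 knockdown, 1195 in CDK6 knockdown and 846 in dual knockdown. Of 9 protein-coding genes within 500 kb of CEMIP, 6 were listed, and the others have no values here. ABHD17C, which lies between ARNT2 and CEMIP, correlated with CEMIP at 0.494 over the 18 libraries. IL16, 207.8 kb beyond it, correlated at 0.896 with means of 81.8 in CDK4 and 202 in CDK6 knockdown. MESD, which overlaps the last part of CEMIP on the opposite strand, was at -0.284, TLNRD1 at -0.402 and STARD5 at 0.426. MESD exons share 2.94% of the CEMIP exon bases, and the strand setting of the read counting is not given in the sources used here.

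CEMIP2 did not follow CEMIP, with which it correlated at -0.192 over the 18 senescent libraries. Its values were 2724, 3090 and 2125 in NT3 and 1246, 1314 and 1359 in NT4. They were 2123, 2021 and 2035 in CCND1 knockdown and 2607, 2595 and 2323 in CDK4 knockdown. In CDK6 knockdown they were 1787, 1799 and 1806, and in dual knockdown they were 2762, 2848 and 2692. The non-targeting siRNAs thus bracketed all 4 knockdown groups except for the overlap of NT3 with CDK4 and with dual knockdown. CEMIP2 was lower in NT4 than in NT3, by a log2 difference of -1.0 (SE 0.09, limma adjusted p = 4.20e-08), and 27.8% of all tested genes were called in that comparison.

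The knockdown differences of CEMIP2 from the controls changed with the control used. Against the mean of both it rose by 0.44 (SE 0.08, limma adjusted p = 0.000398) in CDK4 knockdown and by 0.58 (SE 0.08, limma adjusted p = 2.62e-06) in dual knockdown. Against NT3 alone these differences were -0.06 (limma adjusted p = 0.648) and 0.08 (limma adjusted p = 0.485), and against NT4 alone they were 0.94 and 1.08. In CCND1 knockdown the difference was 0.16 (SE 0.08, limma adjusted p = 0.132), made of a called fall of 0.34 against NT3 (log2 difference -0.34) and a called rise of 0.66 against NT4. In CDK6 knockdown it was -0.04 (SE 0.08, limma adjusted p = 0.71), with -0.54 against NT3 and 0.46 against NT4, both called. The plot against each control alone shows these pairs.

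**Figure D3:**
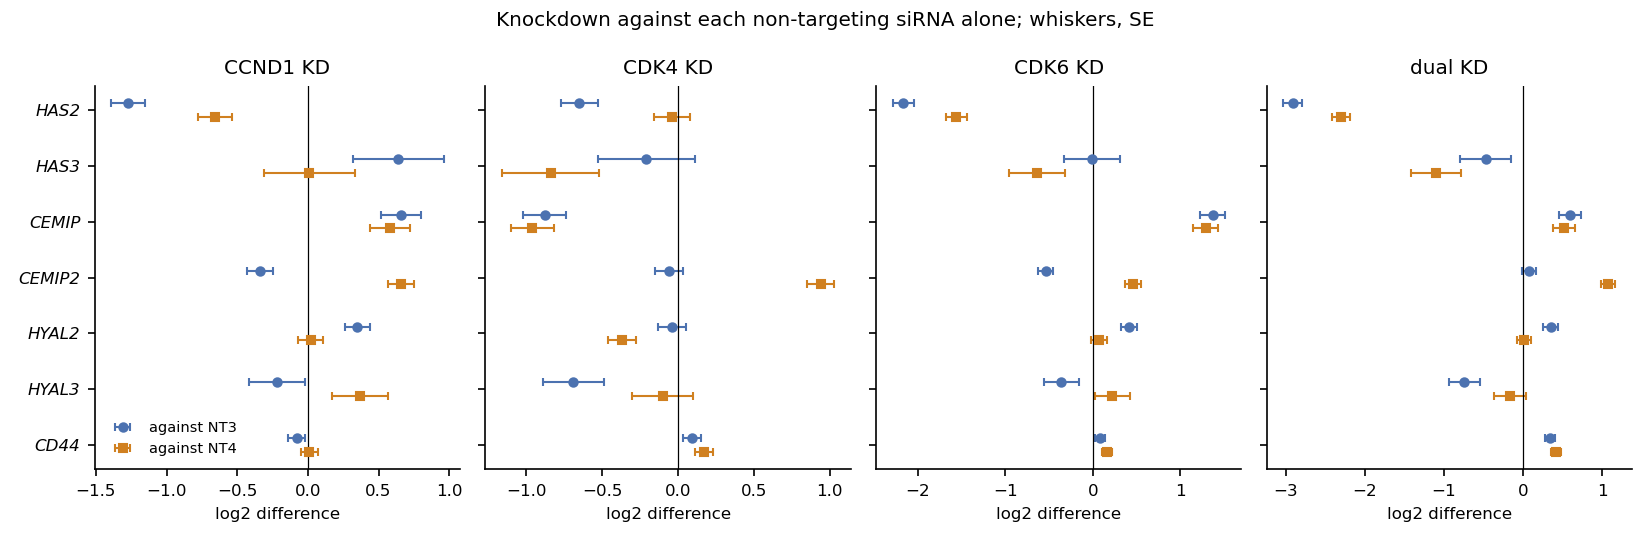
Log2 difference (x axes) of each knockdown from NT3 alone (circles) and from NT4 alone (squares) for 7 hyaluronan genes, with whiskers for the SE. For CEMIP the 2 controls gave nearly the same difference in all 4 knockdowns, while for CEMIP2 they lay 1.0 apart.

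Comparisons of CEMIP2 between knockdowns do not use the controls. Dual knockdown was 0.62 above CDK6 knockdown (SE 0.09, limma adjusted p = 4.58e-05) with no overlap, and 0.14 above CDK4 knockdown (SE 0.09, limma adjusted p = 0.237), a difference called without NT3 library 3 (limma adjusted p = 0.0373). CCND1 knockdown was below dual knockdown, with a difference of -0.43 (SE 0.09, limma adjusted p = 0.00139). As a description, CDK6 knockdown was 0.48 below CDK4 knockdown (log2 difference -0.48, SE 0.09), opposite in sign to CEMIP. The dual effect differed from the sum of the single effects by 0.18 (SE 0.12, limma adjusted p = 0.39), by 0.68 (limma adjusted p = 0.000722) with NT3 alone, by -0.32 (limma adjusted p = 0.188) with NT4 alone and by 0.26 (limma adjusted p = 0.021) without NT3 library 3. Proliferating cells, at 1470, 1628 and 1614, lay between the controls. The rise of 0.24 in senescent controls (SE 0.08, limma adjusted p = 0.00975) was 0.74 with NT3 alone and -0.26 (limma adjusted p = 0.0129) with NT4 alone. It was lost in a fit of only the groups compared (limma adjusted p = 0.0618) and without the first proliferating library (0.19, limma adjusted p = 0.0701).

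The 3 hyaluronidase genes lie in 1 cluster of 29952 bases on the minus strand of chromosome 3, with HYAL3 at chr3:50292831-50299405, HYAL1 at chr3:50299890-50312381 and HYAL2 at chr3:50317790-50322782 (GRCh38). HYAL2, which cuts long hyaluronan at the cell surface, was the most abundant of them and moved little. Its mean was 612 ± 22.8 (SD, n = 3) in proliferating cells, 667 ± 67.0 (SD, n = 3) in NT3 and 841 ± 65.9 (SD, n = 3) in NT4. It was 649 ± 19.6 (SD, n = 3) in CDK4 knockdown and 850 ± 18.5 (SD, n = 3) in CCND1 knockdown. In CDK6 knockdown it was 885 ± 69.3 (SD, n = 3) and in dual knockdown 852 ± 99.3 (SD, n = 3). NT4 thus stood with the CCND1, CDK6 and dual knockdown groups, and NT3 stood with CDK4 knockdown and proliferating cells.

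HYAL2 rose by 0.29 (SE 0.08, limma adjusted p = 0.00202) in senescent controls, but by 0.12 (limma adjusted p = 0.232) with NT3 alone. It was 0.34 higher in NT4 than in NT3 (SE 0.09, limma adjusted p = 0.00669), a call lost in a fit of only the groups compared (limma adjusted p = 0.098). In CDK6 knockdown it rose by 0.24 (SE 0.08, limma adjusted p = 0.014). The difference there was 0.07 (limma adjusted p = 0.568) against NT4 alone, and the call was lost without the second CDK6 knockdown library (0.18, limma adjusted p = 0.113) and in a fit of only the groups compared (limma adjusted p = 0.0549). In CDK4 knockdown the difference was -0.20 (SE 0.08, limma adjusted p = 0.0739), called without NT3 library 3 (-0.25, limma adjusted p = 0.00793). It was -0.37 (limma adjusted p = 0.0068) against NT4 alone and -0.04 (limma adjusted p = 0.804) against NT3 alone. CCND1 and dual knockdown gave 0.19 and 0.18 (SE 0.08, limma adjusted p = 0.0679 and 0.0556). Against NT3 alone both were 0.35 (limma adjusted p = 0.00315 and 0.00256), and against NT4 alone they were 0.02 and 0.01. Each was called in some other alternative runs. Dual knockdown was 0.39 above CDK4 knockdown (SE 0.09, limma adjusted p = 0.00183). Over the 18 senescent libraries HYAL2 was the hyaluronan gene most like CEMIP, with a correlation of 0.774. Its exons share 11.5% of their bases with TUSC2 on the same strand, and how far this affected its values was not tested.

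HYAL3, whose enzymatic role is less clear, was the hyaluronidase gene with the largest senescence difference. It had 63.8, 91.5 and 48.7 in proliferating cells, 149, 166 and 217 in NT3 and 95.7, 149 and 111.6 in NT4, so all controls lay above all proliferating libraries. It rose by 1.11 (SE 0.17, limma adjusted p = 8.51e-06) in senescent controls, by 1.40 with NT3 alone and by 0.82 with NT4 alone, all called. It fell by 0.45 (SE 0.17, limma adjusted p = 0.043) in dual knockdown, at 92.7, 100.5 and 123, which overlapped NT4. That call was lost against NT4 alone (-0.16, limma adjusted p = 0.579), without the third NT3 library (-0.37, limma adjusted p = 0.0677) and without any of 6 other libraries. It was also lost with no filter (limma adjusted p = 0.0915), median centring (limma adjusted p = 0.0503), quantile normalisation (-0.29, limma adjusted p = 0.17) and in a fit of only the groups compared (limma adjusted p = 0.0624). NT4 was 0.58 lower than NT3 (log2 difference -0.58, SE 0.20, limma adjusted p = 0.0354), which was lost without NT3 library 3 or NT4 library 1 or 3 (limma adjusted p 0.099 to 0.169), with no filter (limma adjusted p = 0.0822) and in a fit of only the groups compared (limma adjusted p = 0.114). HYAL3 exons share 11.8% of their bases with NAA80 and 2.19% with IFRD2 on the same strand. HYAL1, the lysosomal hyaluronidase, had 3 to 25 reads in a library and values of 3.64 to 23.7, and it was not called in any comparison of the values as deposited. Its difference in senescent controls was -0.12 (limma adjusted p = 0.812), but under quantile normalisation it was called lower (-1.03, limma adjusted p = 0.0265).

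CD44 was the most abundant of the 9 transcripts and was higher in all senescent libraries than in proliferating ones. Proliferating libraries had 33125, 33183 and 33073. NT3 had 79607, 81847 and 76487 and NT4 had 74694, 73918 and 75674. The rise in senescent controls was 1.22 (SE 0.05, limma adjusted p = 5.80e-15), or 2.32-fold. Of the reads in the listed genes, CD44 took 0.199 to 0.201% in proliferating libraries and 0.463 to 0.529% in controls. Dual knockdown was highest of all, at 99990, 103783 and 97328 and 0.570 to 0.615% of these reads, with no overlap with any other group.

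CD44 rose by 0.38 (SE 0.05, limma adjusted p = 2.65e-06) in dual knockdown. It was 0.25 above CDK4 knockdown (SE 0.06, limma adjusted p = 0.00217), 0.26 above CDK6 knockdown (SE 0.06, limma adjusted p = 0.00371) and 0.42 above CCND1 knockdown. These 4 calls were lost under quantile normalisation but kept under median centring, by edgeR and by DESeq2. Under quantile normalisation, which gives every library the same distribution of values, the rise was 0.03 (limma adjusted p = 0.789), and the differences from CDK4 and CDK6 knockdown turned to -0.13 and -0.05. CD44 in the single knockdowns was 84255 ± 2059 (SD, n = 3) for CDK4 and 83594 ± 2867 (SD, n = 3) for CDK6. The differences from the controls were 0.13 (SE 0.05, limma adjusted p = 0.0879) and 0.12 (SE 0.05, limma adjusted p = 0.0653), and edgeR called both (adjusted p = 0.0278 and 0.0158). Both were also called by limma without NT3 library 3 (limma adjusted p = 0.0338 and 0.0322). CCND1 knockdown, at 75256 ± 3423 (SD, n = 3), gave -0.03 (SE 0.05, limma adjusted p = 0.652). Counts are per gene, so nothing is said of CD44 splice forms.

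**Figure D4:**
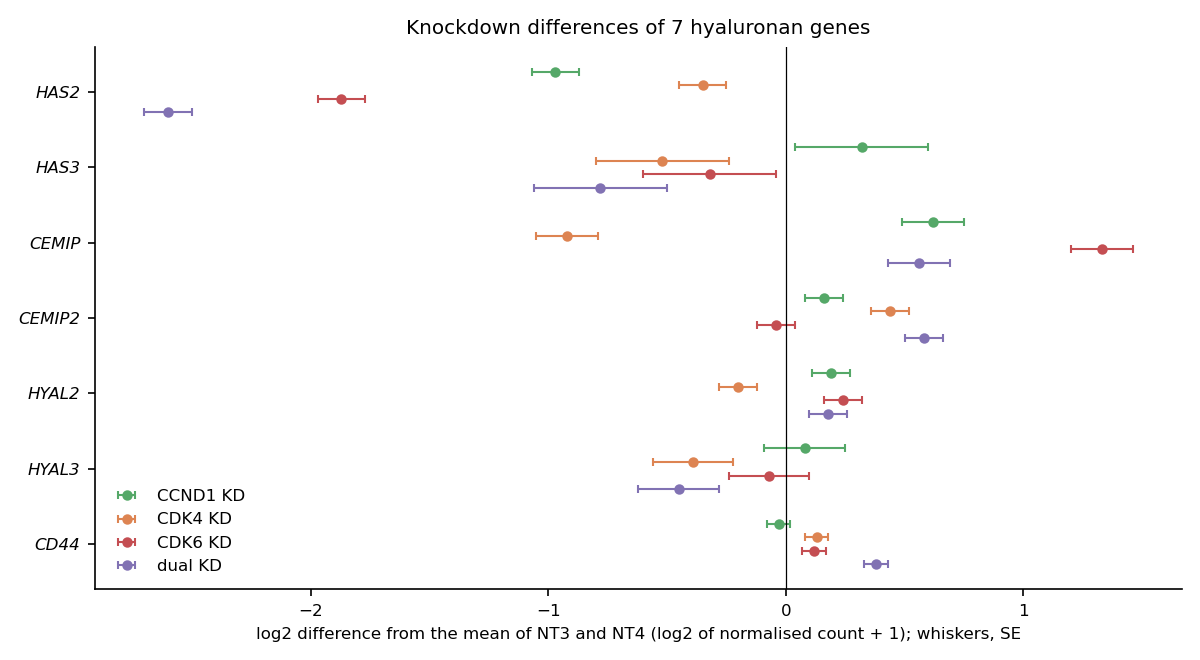
Log2 difference of each of the 4 knockdowns from the mean of NT3 and NT4 (x axis) for 7 hyaluronan genes, with whiskers for the SE. HAS2 lies below 0 in all 4 knockdowns, and CEMIP lies below 0 in CDK4 knockdown and above 0 in the other 3.

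Counted by comparison, 6 of 8 tested members were called in senescent controls against proliferating cells, where 68.6% of all tested genes were called. Of these 5 were higher, against 32.6% of all tested genes, and CEMIP was lower, against 36.1%. The share of members was near that background. Between NT4 and NT3 4 of 8 were called against the 27.8% given above, HYAL2 higher (14.7% of all tested genes) and CEMIP2, HAS2 and HYAL3 lower (13.1%). In CCND1 knockdown 2 of 8 were called against 31% of all tested genes, CEMIP higher (16.7%) and HAS2 lower (14.4%). In CDK4 knockdown 2 of 7 were called against 16%, leaving CEMIP out, with CEMIP2 higher (8.46%) and HAS2 lower (7.55%). In CDK6 knockdown 2 of 7 were called against 41.9%, again without CEMIP, with HYAL2 higher (21.1%) and HAS2 lower (20.8%). Dual knockdown had 6 of 8 called against 44%, with CEMIP, CEMIP2 and CD44 higher (22.5%) and HAS2, HAS3 and HYAL3 lower (21.5%). The median difference of all tested genes was -0.03 to 0.01 in every comparison.

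Among comparisons between knockdowns, dual against CDK4 knockdown had 3 of 7 members called against 30.6% of all tested genes (HYAL2 and CD44 higher, 15.8%, and HAS2 lower, 14.8%). Dual against CDK6 knockdown had 3 of 7 called against 13% (CEMIP2 and CD44 higher, 6.05%, and HAS2 lower, 6.94%). CCND1 against dual knockdown had 4 of 8 called against 20.3%, 2 higher (11.2%) and CEMIP2 and CD44 lower (9.12%). HAS2 was 1.64 higher there (SE 0.12, limma adjusted p = 3.11e-09) and HAS3 1.11 higher (SE 0.32, limma adjusted p = 0.0176). The HAS3 call was lost in several alternatives. No member departed from the sum of the single knockdowns by limma (0 of 7, against 6.35% of all tested genes, 2.63% higher and 3.71% lower), and 1 (HAS2) did at an unadjusted p under 0.05. By edgeR the counts were 0 and 1 (HAS2), and by DESeq2 they were 0 and 2 (HAS2 and CD44). For CDK6 against CDK4 knockdown, the comparison used in choosing CEMIP, 34.8% of all tested genes were called. Beside CEMIP and CEMIP2, the difference there was -1.52 for HAS2 (SE 0.12), 0.44 for HYAL2 (SE 0.09) and -0.01 for CD44 (SE 0.06), given without a test.

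Other genes of the pathway were taken from lists by role, and up to 3 called genes with the largest differences are named per list and comparison. UGDH, PTX3, RDX, MSN and MMP14 are also named where they fall outside those 3, which was chosen after their values were seen. All 9 genes that supply UDP sugars were tested. In senescent controls 1 was higher and 4 lower (median -0.07, against -0.03 for all tested genes). GFPT1, the entry enzyme of the hexosamine pathway, rose by 0.82 (SE 0.04, limma adjusted p = 4.11e-13), while UGP2 fell by 0.74, GNPNAT1 of the same hexosamine pathway fell by 0.59 and UGDH, which makes UDP-glucuronic acid, fell by 0.49. In the knockdowns 3 rose and 3 fell with CCND1 siRNA, 3 and 1 with CDK4, 2 and 3 with CDK6, and 3 and 2 with the dual treatment. The largest difference was -0.49 for SLC35D2 in CCND1 knockdown (SE 0.08, limma adjusted p = 0.000123) and 0.48 for GFPT2 in CDK4 knockdown (SE 0.09, limma adjusted p = 0.000792). SLC35D1 differed by -0.38 in CDK6 and in dual knockdown (SE 0.09, limma adjusted p = 0.00187 and 0.00175). UGP2, which makes UDP-glucose, rose in all 4 knockdowns by 0.31 to 0.38. PGM3, a mutase of the hexosamine pathway, was called higher in all 4 by 0.16 to 0.35. PGM3 differed between the controls by 0.41 (NT4 higher, limma adjusted p = 2.66e-06), and the mean of 2383 in CDK6 knockdown lay above that of NT3 (1858) and below that of NT4 (2462).

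Of 17 matrix proteins that bind hyaluronan, 15 were listed and 7 tested. HAPLN3 and HAPLN4 were not listed, so their levels are not known here. In senescent controls 3 were higher and 1 lower (median 1.04). TNFAIP6 (TSG-6), which transfers heavy chains onto hyaluronan, was by mean, among the senescent groups, lowest in dual, then CDK6, then CCND1 knockdown, as HAS2 was. Its CDK6 and CCND1 knockdown libraries overlapped, while those of HAS2 did not. Unlike HAS2, TNFAIP6 was also low in proliferating cells, at 16.6, 21.3 and 26.6, which overlapped CCND1 and CDK6 knockdown. It had 84.1, 90.1 and 143 in NT3, 73.5, 65.2 and 46.2 in NT4 and 67.2, 55.8 and 67.7 in CDK4 knockdown. It had 21.3, 24.5 and 44.2 in CCND1 knockdown, 15.3, 14.9 and 25.9 in CDK6 knockdown and 9.93, 12 and 13 in dual knockdown, all below the controls. It rose by 1.85 (SE 0.25, limma adjusted p = 8.84e-07) in senescent controls and fell in CCND1, CDK6 and dual knockdown, with differences of -1.44, -2.07 and -2.67 (SE 0.25, limma adjusted p = 0.000152, 9.30e-07 and 1.71e-08).

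PTX3, a pentraxin that crosslinks the hyaluronan matrix with TNFAIP6, fell by 0.49 in senescent controls (SE 0.10, limma adjusted p = 0.000199), whose libraries overlapped the proliferating ones. It fell by 0.68 in CDK6 knockdown (SE 0.10, limma adjusted p = 1.26e-05) and by 0.55 in dual knockdown (SE 0.10, limma adjusted p = 0.000123), without overlap. VCAN (versican) rose by 0.49 in CDK6 knockdown (SE 0.13, limma adjusted p = 0.00426). It had 6931 and 8310 in the first and second NT3 libraries and 4063 in the third, and the call was not checked without the third. HAPLN1, a link protein, had 0, 2.13 and 4.43 in proliferating cells and 7.28 to 52.3 in the controls. ITIH5, a heavy chain gene, rose by 1.80 in senescent controls (SE 0.36, limma adjusted p = 0.00016) from a mean of 2.83 to 12.6. In CDK4 knockdown none of the 7 was called, in CCND1 knockdown 1 was lower, in CDK6 knockdown 1 was higher and 2 lower, and in dual knockdown 2 were lower (median -0.55, against 0 for all tested genes).

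Of 7 other hyaluronan receptors 6 were listed, and HMMR (RHAMM) was the 1 tested. LAYN was not listed, so its level in these cells is not known here. LYVE1, STAB1, STAB2, TLR2 and TLR4 had no more than 12.2 in any library. HMMR fell by 2.53 in senescent controls (SE 0.12, limma adjusted p = 6.18e-14), and in the knockdowns of CCND1 (-0.70), CDK6 (-0.69) and both kinases (-2.2). It rose by 0.46 in CDK4 knockdown (SE 0.12, limma adjusted p = 0.0123), where its libraries overlapped those of the controls. HMMR is also a spindle gene of dividing cells. MKI67, the proliferation marker, differed beside it by -3.63 in senescent controls and by -0.63, 0.58, -0.67 and -2.73 in CCND1, CDK4, CDK6 and dual knockdown. The part of dividing cells in the HMMR result was not tested.

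Among further cutting enzymes, HEXA, a lysosomal hexosaminidase gene, rose by 0.85 in senescent controls (SE 0.04, limma adjusted p = 7.32e-14), while GUSB, the beta-glucuronidase, fell by 0.85 (SE 0.08, limma adjusted p = 4.86e-09). In dual knockdown HEXA rose by 0.16 (SE 0.04, limma adjusted p = 0.00283) and GUSB fell by 0.21 (SE 0.08, limma adjusted p = 0.038). Both fell in CCND1 knockdown, with differences of -0.25 for HEXA (SE 0.04, limma adjusted p = 7.59e-05) and -0.28 for GUSB (SE 0.08, limma adjusted p = 0.0101). The GUSB libraries of dual and of CCND1 knockdown overlapped the controls. NT4 differed from NT3 by -0.18 for HEXA (limma adjusted p = 0.0084) and by -0.2 for GUSB (limma adjusted p = 0.106). Neither gene was called in CDK4 or CDK6 knockdown.

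Of 10 CD44 partners and sheddases 8 were tested. In senescent controls 2 were higher and 4 lower, with EZR, RDX and MSN, the proteins that tie the CD44 tail to actin, falling by 0.90, 0.57 and 0.49. In dual knockdown 7 of the 8 rose and 1 fell (median 0.31, against 0 for all tested genes, of which 22.5% were called higher). There NF2 (merlin), a relative of ezrin that binds the CD44 tail, rose by 0.39, MSN by 0.36, EZR by 0.34 and RDX by 0.33. RDX and MSN also rose in the other 3 knockdowns, by 0.22 to 0.40. RDX differed between the controls by 0.41 (NT4 higher, limma adjusted p = 9.80e-06). The single fall was MMP14, a membrane protease that sheds CD44, which fell by 0.21 in dual, 0.36 in CCND1 and 0.50 in CDK6 knockdown after a rise of 0.60 in senescent controls (SE 0.04, limma adjusted p = 1.63e-11). The counts of this list were 5 higher and 1 lower in CCND1, 3 and 0 in CDK4 and 5 and 1 in CDK6 knockdown.

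**Figure D5:**
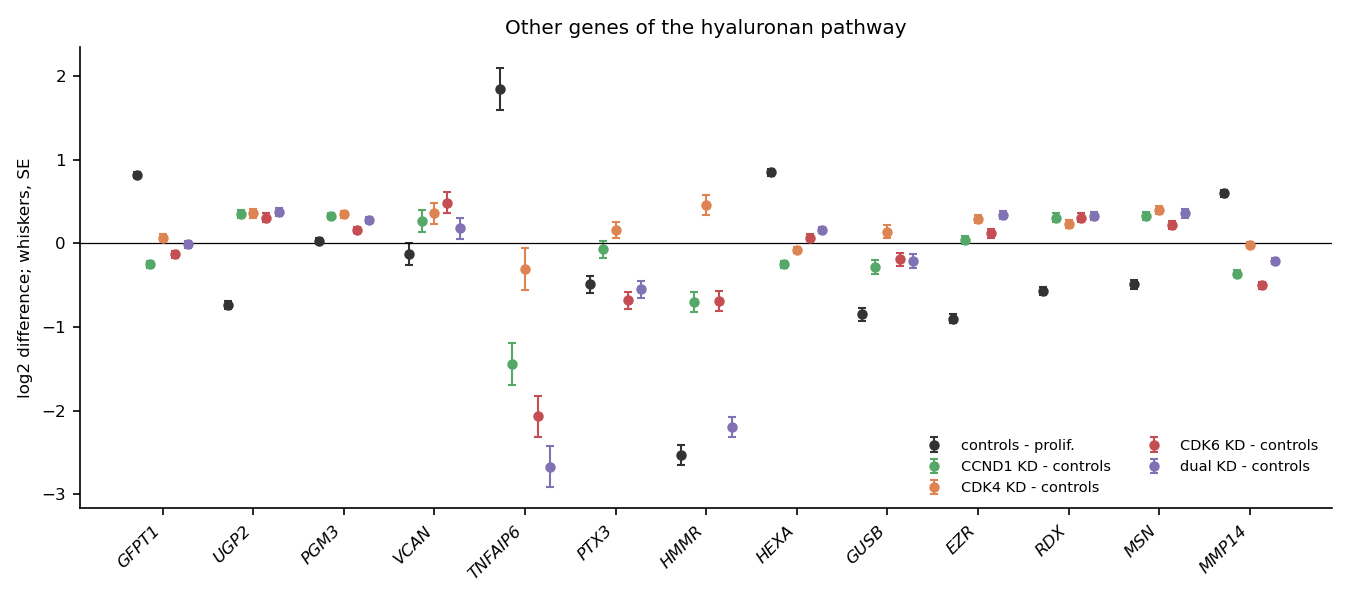
Log2 differences (y axis, whiskers SE) of 13 other genes of the hyaluronan pathway, for senescent controls against proliferating cells and for each knockdown against the controls. TNFAIP6 and HMMR lie furthest below 0 in dual knockdown, and EZR, RDX and MSN lie above 0 there.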

How the data were processed

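RNA abundance was measured by sequencing of poly(A) RNA in 21 IMR90 libraries. The submitters' processing notes name Trimmomatic 0.38.1, HISAT2 2.2.1, featureCounts 2.0.3 and DESeq2 2.11.40.8 and the builds hg38 and GRCh38. The strand setting and the annotation used for counting are not given in the sources used here. The values deposited are a signal on a linear scale, namely normalised counts that the authors made by dividing reads by 1 size factor per library. Within a tolerance of 0.01, 100% of values returned whole reads. Libraries had 12892442 to 21822152 reads in the listed genes, which end at Entrez ID 140467, and 19 listed genes have no symbol. A gene that is not listed has no value here, whatever its expression.

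The columns name the group but no replicate number, so libraries are numbered in column order as names only. The log2 of the value plus 1 was fitted with limma 3.58.1 (R 4.3.3, trended empirical Bayes, 1 mean per group, all 21 libraries) for 11579 genes with at least 10 in at least 3 libraries. Tests were two-sided with Benjamini-Hochberg adjustment over all tested genes, in each of 11 comparisons. In dual knockdown against controls, edgeR 4.0.16 on the recovered reads called 5081 genes and limma on the log2 values called 5094. DESeq2 1.42.0 was the other alternative. The limma fit was tried on simulated counts with the same dispersion for every gene and no difference between NT3 and NT4. That run does not show how the fit behaves where the controls differ, as they do here. Named genes were the 9 members, the genes most like CEMIP by correlation, and at most 3 called genes per pathway list and comparison, with exceptions marked; positions and promoters came from GENCODE v44 and RefSeq. The members and lists were chosen with earlier results of these data known. A gene of the pathway lists is not reported here.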

Additional observations from a re-analysis of the deposited data

How the results depend on the processing

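Of the results with a test or a description, those of CEMIP against the controls and of HAS2 in CCND1, CDK6 and dual knockdown kept direction and, where tested, call in every alternative run (pseudocounts of 0.1 and 10, no filter, a mean of at least 100, median centring, quantile normalisation, either control alone, fewer groups in the fit, edgeR, DESeq2, each library left out). The cause of the changes below was not tested. Members called changed from 6 to 3 in dual knockdown and from 4 to 2 in CCND1 against dual knockdown under quantile normalisation. With NT3 alone they changed from 2 to 4 in CCND1 knockdown, and with either control alone from 0 to 1 for the departure from the sum. In fits of only the groups compared, which estimate the spread from fewer libraries, they changed from 4 to 2 for NT4 against NT3 and from 2 to 1 in CDK4 and in CDK6 knockdown. With each library left out the counts ran from 2 to 4 in CCND1, 1 to 4 in CDK4, 1 to 3 in CDK6 and 0 to 1 for the departure. The 4 in CCND1 came without NT3 library 2, and the 4 in CDK4 and the 1 for the departure without NT3 library 3. The 1 in CDK4 came without NT4 library 2 or CDK4 knockdown library 1 or 3, and the 1 in CDK6 without its second library.

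Under quantile normalisation CD44 turned to -0.13 (dual against CDK4), -0.05 (dual against CDK6) and -0.22 (departure). With NT3 alone CEMIP2 turned to -0.34 in CCND1 and -0.06 in CDK4 knockdown, and HYAL3 to -0.22 in CCND1. With NT4 alone, senescent controls gave -0.26 for CEMIP2 and -0.24 for HAS2, CCND1 knockdown gave 0.01 for CD44, CDK6 knockdown gave 0.46 for CEMIP2 and 0.22 for HYAL3, and the CEMIP2 departure was -0.32. With each library left out, CEMIP ran from -0.17 to 0.28 for NT4 against NT3 and from -0.03 to 0.16 for CCND1 against dual knockdown, while in CDK6 knockdown CEMIP2 ran from -0.11 to 0.02 and HYAL3 from -0.16 to 0.01. Of the 5 genes most like CEMIP, 1 was shared with the ranking over group means.

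Counts over all genes moved by more than 1.5 times in some alternatives. The 735 for the departure became 1899 with NT3 alone, 455 with NT4 alone and 394 with fewer groups, and ran up to 1436 without the third NT3 library. The 3216 for NT4 against NT3 became 955, the 3594 in CCND1 knockdown 2269 and the 1854 in CDK4 knockdown 787 with fewer groups. CCND1 knockdown gave 2235 with NT4 alone and CDK4 knockdown 2962 with NT3 alone, or 1061 without its second library. Dual against CDK6 knockdown moved from 1504 to 2434 with fewer groups, 2854 without the third NT3 library and 937 without the third CDK6 library, and CCND1 against dual knockdown from 2354 to 3532 without the third NT3 library.

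The replicate numbers of the sample titles could not be used for pairing because the columns carry none. Library codes run in 3 series of 6 consecutive senescent libraries, 1 of each group. In an alternative chosen after seeing the data, a replicate block by these series left the count of members called as it was in each of the 9 comparisons it could give, for example 6 in dual knockdown, and CEMIP in CDK6 against CDK4 knockdown at 2.25. Same-series libraries correlated at a median of 0.037 (45 pairs, -0.11 to 0.1) after removal of group means. Libraries of different series correlated at a median of -0.017 (90 pairs, -0.144 to 0.161). Of 18 libraries, 13 correlated best with their own series.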
